A study of Mus musculus with 13 samples.

Results

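The genes of glycolysis and of the response to hypoxia were followed through the RNAseq of haemangioblasts and haemogenic endothelium made from mouse embryonic stem (ES) cells. The 38 members were taken by their names: 4 transporters of glucose and lactate, 16 glycolytic enzymes, 3 regulators of glycolytic flux, 4 genes of oxygen sensing and 11 genes known to respond to hypoxia. Each matched 1 gene of the 45250 in the expression table. No cut on expression was used to choose them, but the list was made with earlier results of these data known. Flk-1+ cells were isolated with magnetic beads from embryoid bodies of 3 ES cell lines, the wild-type (WT) line CCB, an Lmo2-/- line and a Tal1-/- line. HE1, sorted as Tie2+ Kit+ CD41- cells, came from blast cultures of WT and Lmo2-/- Flk-1+ cells that received VEGF, IL-6 and medium conditioned by D4T endothelial cells. There were 3 libraries of Flk-1+ cells of each genotype and 2 libraries of HE1 of each of the 2 genotypes, 13 in all. The labels name no time point, and the oxygen level of the cultures is not given in the sources used here. Each genotype is a single line, so a difference between genotypes cannot be told apart from a difference between lines. The limma p-values measure the spread between replicate libraries within groups, pooled over all groups, and not the spread between lines of 1 genotype.

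Glycolysis splits glucose into pyruvate, which is either oxidised in mitochondria or reduced to lactate and exported. When oxygen falls, prolyl hydroxylases no longer mark the alpha subunits of the hypoxia-inducible factors for destruction, and the stabilised factors raise transcription of glucose transporters, glycolytic enzymes, lactate exporters and the mitophagy and angiogenic genes followed here. Pluripotent and early embryonic cells are known for a high glycolytic rate, and endothelial cells are also known to rely on glycolysis, with the HIF-2 alpha gene Epas1 named for its expression in endothelium.

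Levels are FPKM, fragment counts divided by transcript length and library size, which are per length and can be set against each other between genes. Fold changes are on the scale log2(FPKM + 1) from 1 limma fit of 13802 genes over the 13 libraries, and a gene was called when its Benjamini-Hochberg adjusted p was below 0.05 and its mean FPKM exceeded 10 in at least 1 group compared. Of the 38 members 37 passed the filter on low values, and only Car9, a carbonic anhydrase of hypoxic cells, did not: it was listed at 0 in 12 libraries and at 0.188 FPKM in Lmo2-/- Flk-1+ replicate 2. The targeted genes separated the Flk-1+ libraries. Lmo2 had 22.9, 30.8 and 21.6 FPKM in WT and 2.63, 6.47 and 2.17 FPKM in Lmo2-/- Flk-1+ cells, and Tal1 had 37.4, 25.6 and 21.98 FPKM in WT and 2.74, 3.41 and 2.88 FPKM in Tal1-/- Flk-1+ cells. In HE1 they did not: Lmo2 had 4.30 and 20.6 FPKM in the libraries labelled WT and 6.42 and 0 FPKM in those labelled Lmo2-/-, so every genotype direction in HE1 rests on the labels. Replicate 1 of HE1 labelled Lmo2-/- stood apart, with 9694 genes above 0 against 11861 to 15641 in the other 12 libraries. A single fragment there was estimated at 3.73 times its FPKM in WT Flk-1+ replicate 0, against 0.616 to 1.57 times in the other libraries. The estimate was the most frequent FPKM ratio over genes above 0 in few libraries, taken to hold 1 fragment each. It used 48 genes for this library and could not be checked without fragment counts. The summed FPKM of 5 genes listed for HE1 (Tek, Kit, Cdh5, Pecam1 and Itga2b) was at most 14.9 in Flk-1+ cells and 694 to 757 in HE1. Of these Itga2b encodes CD41, for which HE1 was sorted as negative. It had 15.4 and 10.4 FPKM in HE1 labelled WT and 19.8 and 0 FPKM in HE1 labelled Lmo2-/-, against at most 5.54 FPKM in Flk-1+ cells. Kdr, which encodes Flk-1, was present in all libraries at 68.7 to 275 FPKM. The summed FPKM of 9 smooth muscle and fibroblast markers was 14.5 to 25.8 in WT, 28.8 to 38.8 in Lmo2-/- and 28.1 to 45.9 in Tal1-/- Flk-1+ cells, 215 and 257 in HE1 labelled WT, and 534 and 1663 in HE1 labelled Lmo2-/-. Of the 9, Cnn1 and Myl9 were at 0 in replicate 1 labelled Lmo2-/- and none was at 0 in replicate 0, and the part of these markers in the HE1 values below was not tested. In such bulk samples a change in the share of a cell type and a change of RNA per cell cannot be told apart.

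The letters bound by the hypoxia-inducible factors, ACGTG or GCGTG on either strand, are shown in the promoters of 4 members that passed the test in the comparisons below: Ldha and Slc16a1, which make and export lactate, Tpi1, an enzyme of mid-glycolysis, and Slc2a1, the glucose transporter GLUT1. The bases are the 250 before the RefSeq transcription start on GRCm38.p6, 5′ to 3′ on the gene's strand, with matches in capitals. A palindromic CACGTG, also the letters of an E-box, reads as a match on both strands and counts as 2.
Ldha promoter at chr7:46845554-46845803, plus strand, with 5 matches: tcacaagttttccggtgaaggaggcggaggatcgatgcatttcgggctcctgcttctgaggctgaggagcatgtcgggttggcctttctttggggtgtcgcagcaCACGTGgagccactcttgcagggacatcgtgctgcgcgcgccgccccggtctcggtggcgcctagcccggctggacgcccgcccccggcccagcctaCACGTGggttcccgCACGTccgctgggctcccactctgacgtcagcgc
Slc16a1 promoter at chr3:104638414-104638663, plus strand, with 4 matches: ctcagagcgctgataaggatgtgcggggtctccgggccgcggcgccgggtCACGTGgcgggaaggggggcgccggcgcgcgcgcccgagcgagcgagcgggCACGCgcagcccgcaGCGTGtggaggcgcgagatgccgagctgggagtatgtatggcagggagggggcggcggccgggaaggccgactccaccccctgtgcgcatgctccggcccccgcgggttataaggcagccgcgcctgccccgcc
Tpi1 promoter at chr6:124814159-124814408, minus strand, with 0 matches: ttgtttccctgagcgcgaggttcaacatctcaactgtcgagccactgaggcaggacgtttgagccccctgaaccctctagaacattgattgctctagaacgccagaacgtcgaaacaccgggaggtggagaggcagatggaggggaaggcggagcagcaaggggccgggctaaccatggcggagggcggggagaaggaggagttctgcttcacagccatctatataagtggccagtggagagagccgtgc
Slc2a1 promoter at chr4:119108495-119108744, plus strand, with 2 matches: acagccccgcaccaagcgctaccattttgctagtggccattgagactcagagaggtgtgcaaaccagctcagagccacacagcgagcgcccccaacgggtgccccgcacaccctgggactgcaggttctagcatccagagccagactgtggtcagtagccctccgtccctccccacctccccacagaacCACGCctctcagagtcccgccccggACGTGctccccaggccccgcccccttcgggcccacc

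Over windows of 250 bases before and 50 after the start, 33 of the 38 members had at least 1 window in the RefSeq table, 49 windows in all. Of these 40 (81.6%) held at least 1 match, against 43.8% of all 32851 windows and 61.9% of the 12108 windows of genes that were tested. The members' windows were also richer in G and C, with a median of 63.0% against 52.7% in all windows and 61% in those of tested genes. The matches are letters only and say nothing of binding in these cells. Ldha held the most, 7 in the longer window, and Tpi1 and Gpi1 held 0. A relation of the matches to the changes between the stages was not tested.

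**Figure D1:**
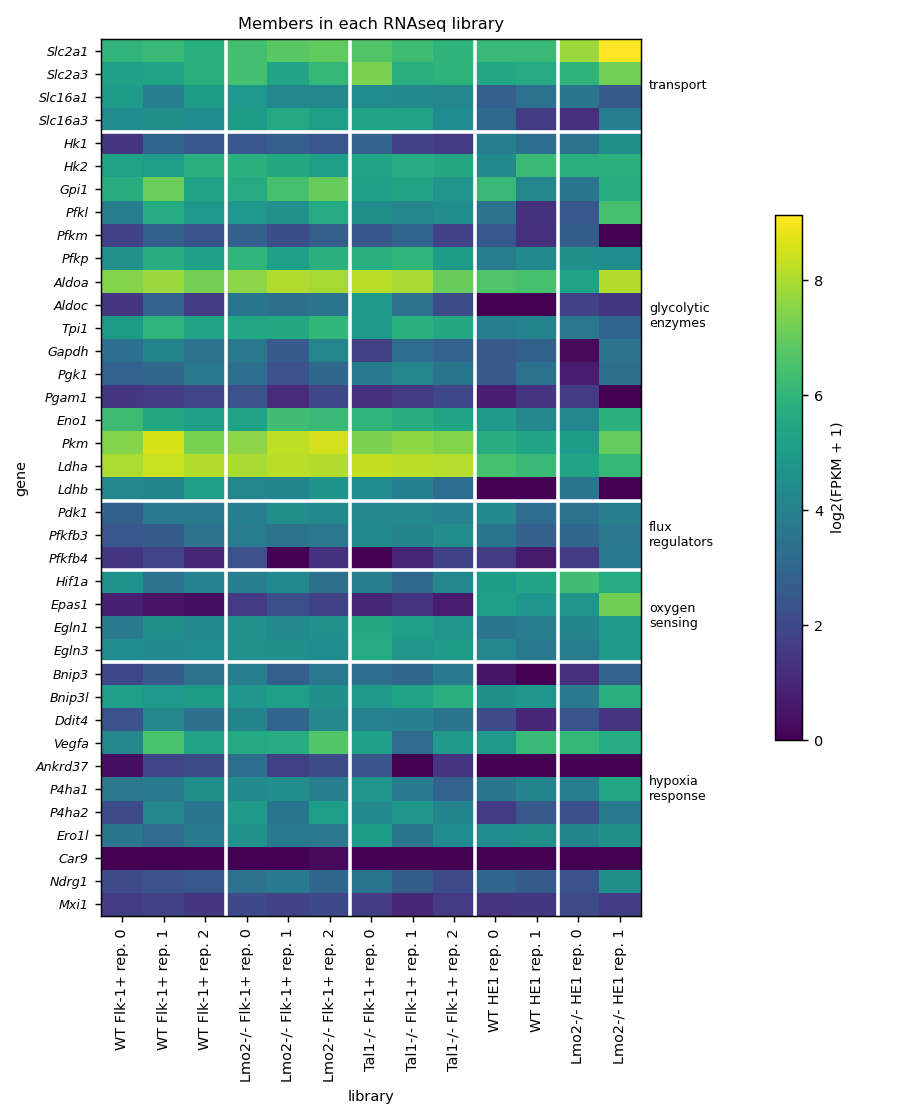
Levels of the 38 members (rows) in the 13 libraries (columns) as log2(FPKM + 1), with white lines between role groups and between sample groups. Ldha, Pkm and Aldoa were the highest enzymes in Flk-1+ cells, and the columns of HE1 are darker for most enzymes and brighter for Epas1 and Hif1a.

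Most calls among the members came from the step from Flk-1+ cells to HE1. In WT, 6 members changed: Ldha, Ldhb, Pkm, Tpi1 and the lactate transporter Slc16a1 fell, and Epas1 rose. In the Lmo2-/- line 10 members changed: those 5 fell again together with the lactate exporter Slc16a3 and the mTORC1 inhibitor gene Ddit4, and Epas1 rose again together with Hif1a and Slc2a1. Members called lower were 5 of 37 in WT, where 0.942% of all tested genes were called lower, and 7 of 37 in Lmo2-/-, where 2.38% were. Members called higher were 1 of 37 in WT and 3 of 37 in Lmo2-/-, where 6.04% and 17.2% of all genes were called higher. The median log2 fold change of the 37 members was -0.53 in WT (10 positive, 27 negative) and -0.85 in Lmo2-/- (9 positive, 28 negative), beside 0.11 and 0.30 over all tested genes. Without overlap between the libraries of the 2 stages, 18 members were lower and 6 higher in WT HE1, or 48.6% and 16.2% of the 37, against 17.2% and 27.6% of all genes. In Lmo2-/- these were 10 lower and 4 higher, or 27.0% and 10.8%, against 15.1% and 31.9%. The split of the Lmo2-/- calls moved with the scaling: after rescaling all libraries to a common median 17 members were called lower and 1 higher, and after quantile normalization 12 and 1. The shares of all genes called under these scalings are not given here, so these counts have no background beside them. The median in Lmo2-/- rested on HE1 replicate 0: it was -0.89 without replicate 1 but -0.092 without replicate 0. In WT the count of calls fell to 3 without either HE1 library.

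**Figure D2:**
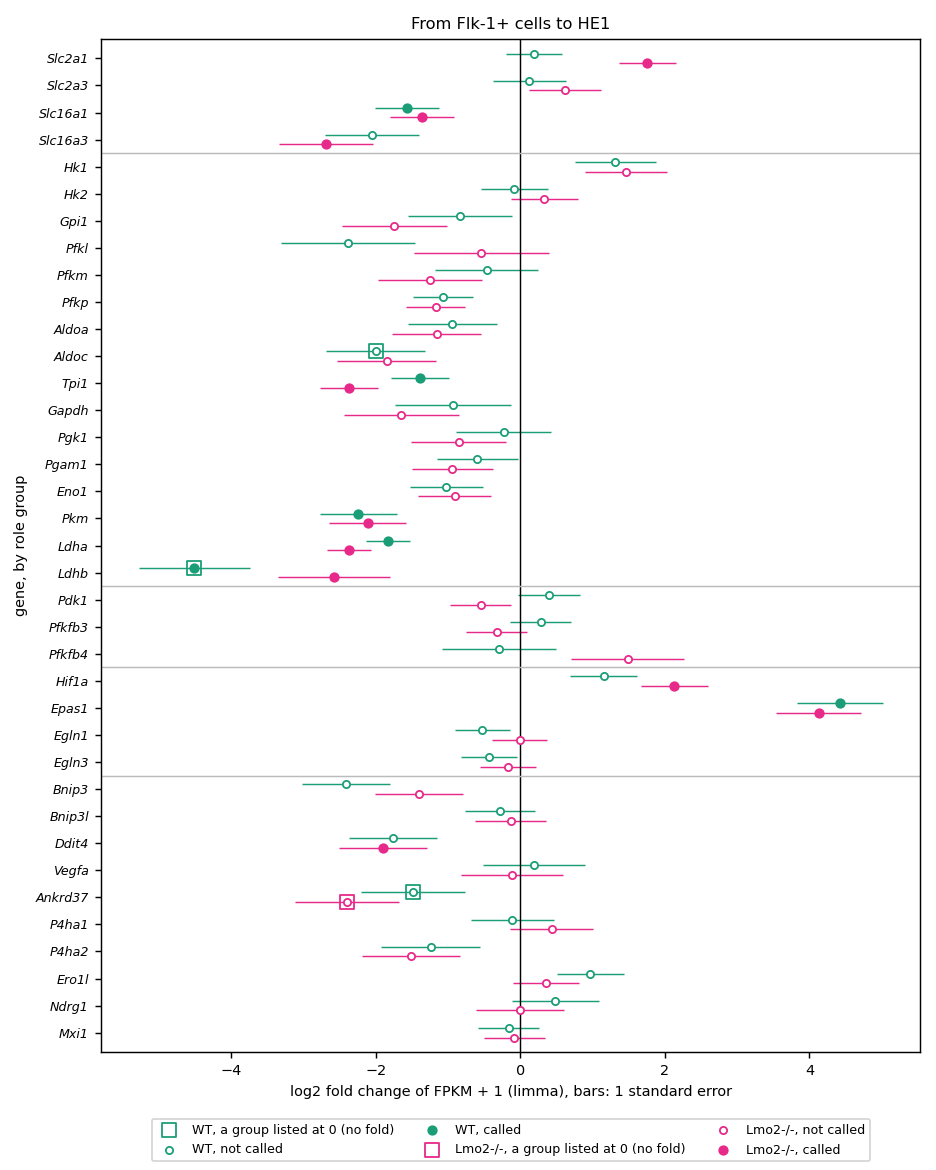
Log2 fold changes from Flk-1+ cells to HE1 of the 37 members tested, in WT (green) and Lmo2-/- (pink), as points with 1 standard error from limma. Filled points passed the test, and squares mark members listed at 0 in all libraries of a group, whose position is not a fold; 15 of 16 enzymes lie left of 0 in WT and 14 in Lmo2-/-, and Epas1 lies furthest right.

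Ldha, Pkm, Tpi1 and Ldhb were the enzymes called lower in both lines. Ldha, the lactate dehydrogenase subunit that favours lactate formation, had 258, 333 and 274 FPKM in WT Flk-1+ cells and 87.6 and 72.8 FPKM in WT HE1. It had 249, 292 and 269 FPKM in Lmo2-/- Flk-1+ cells and 39.5 and 66.9 FPKM in HE1 labelled Lmo2-/-. No HE1 library reached any Flk-1+ library, and Ldha fell by 1.83 in WT (SE 0.31, limma adjusted p = 0.00212) and fell by 2.37 in Lmo2-/- (SE 0.31, adjusted p = 0.000276) on the log2 scale. Both calls were kept under all 22 alternatives, among them the fits without each library. Pkm, pyruvate kinase, which makes pyruvate, had 172, 386 and 158 FPKM in WT Flk-1+ cells and 51.1 and 40.6 FPKM in WT HE1. Lmo2-/- cells had 185, 309 and 363 FPKM of Pkm before and 31.4 and 125 FPKM after the step. The stages did not overlap in either line, and Pkm fell by 2.24 in WT (SE 0.53, adjusted p = 0.0179) and fell by 2.11 in Lmo2-/- (SE 0.53, adjusted p = 0.0120). Each call was lost in 3 of the 22 alternatives, without WT Flk-1+ replicate 1 or either WT HE1 library in WT (highest adjusted p 0.129), and in Lmo2-/- when the groups were fitted alone, with array weights and without HE1 replicate 0 (highest adjusted p 0.101).

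Tpi1, triose phosphate isomerase, had 30.3, 61.8 and 37.1 FPKM in WT Flk-1+ cells and 14.3 and 15.97 FPKM in WT HE1, and 42.4, 45.8 and 64.8 FPKM in Lmo2-/- Flk-1+ cells and 11.3 and 6.95 FPKM in HE1 labelled Lmo2-/-. It fell without overlap by 1.39 in WT (SE 0.40, adjusted p = 0.0448) and fell by 2.37 in Lmo2-/- (SE 0.40, adjusted p = 0.00130). The WT call lies close to the threshold and was lost in 11 of the 22 alternatives, and the Lmo2-/- call was lost only when the FPKM of a near-identical pseudogene copy was added (adjusted p = 0.194). Ldhb, the lactate dehydrogenase subunit that favours pyruvate, had 18.3, 16.4 and 34.2 FPKM in WT Flk-1+ cells and was listed at 0 in both WT HE1 libraries (adjusted p = 0.00249, kept in all 22 alternatives). In Lmo2-/- it had 17.2, 16.4 and 25.3 FPKM before the step and 10.6 and 0 FPKM after it (adjusted p = 0.0271), a call lost in 6 of the 22 alternatives, among them the fits without Lmo2-/- Flk-1+ replicate 0 or 2 and HE1 replicate 1 (highest adjusted p 0.347). Values of 0 for abundant genes were not rare in HE1: of 4079 genes with a median FPKM above 10, 34 to 59 were listed at 0 in 3 of the HE1 libraries and 191 in replicate 1 labelled Lmo2-/-.

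The other enzymes were mostly lower in HE1 but did not pass the test. Pfkp, the platelet-type phosphofructokinase, had 23.6, 51.4 and 36.3 FPKM in WT Flk-1+ cells and 13.5 and 19.8 FPKM in WT HE1, and 64.2, 36.1 and 56.2 against 23.2 and 20.7 FPKM in Lmo2-/-. The stages did not overlap, and the log2 fold changes were -1.07 (adjusted p = 0.129) and -1.17 (adjusted p = 0.0522). Aldoa, the main aldolase, had 174, 216 and 149 FPKM in WT Flk-1+ cells and 97.3 and 87.4 FPKM in WT HE1, with a log2 fold change of -0.94 (adjusted p = 0.387). In Lmo2-/- Aldoa overlapped, at 185, 264 and 237 FPKM before and 37.3 and 269.8 FPKM after the step, and its file locus also holds Gm15676. Eno1, enolase, had 75.2, 45.6 and 34.00 FPKM in WT Flk-1+ cells and 29.8 and 18.5 FPKM in WT HE1, a log2 fold change of -1.03 (adjusted p = 0.240), and 38.4, 79.96 and 69.6 against 17.4 and 56.1 FPKM in Lmo2-/-, which overlap. The 2 HE1 libraries labelled Lmo2-/- differed widely for these genes.

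Aldoc, the minor aldolase, was listed at 0 in both WT HE1 libraries against 1.74, 6.47 and 2.12 FPKM in WT Flk-1+ cells, and had 10.7, 9.43 and 10.4 against 2.45 and 1.79 FPKM in Lmo2-/-, without overlap (adjusted p = 0.0894 and 0.0644). Pfkl, the liver-type phosphofructokinase, had 13.7, 49.6 and 28.2 FPKM in WT Flk-1+ cells and 10.2 and 1.54 FPKM in WT HE1, without overlap, and 28.4, 23.8 and 48.8 against 4.75 and 89.4 FPKM in Lmo2-/-, where the 2 HE1 libraries lay on either side of the Flk-1+ cells. Gpi1, glucose phosphate isomerase, had 50.5, 137 and 38.8 FPKM in WT and 48.9, 88.2 and 127 FPKM in Lmo2-/- Flk-1+ cells, beside 71.4 and 17.6 and 10.7 and 51.4 FPKM in HE1 of these lines. Both lines overlapped between the stages for Gpi1, and the pair of WT HE1 libraries alone spread over much of the range.

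Hk1 and Hk2, the hexokinases that commit glucose to the pathway, did not pass the test. Hk1 had 1.69, 6.74 and 4.57 FPKM in WT Flk-1+ cells and 13.99 and 8.81 FPKM in WT HE1, and 4.56, 5.61 and 4.62 against 10.3 and 22.5 FPKM in Lmo2-/-. It was higher in HE1 without overlap in both lines, the only enzyme of which this holds, with log2 fold changes of 1.31 (adjusted p = 0.174) and 1.46 (adjusted p = 0.0738). Hk2 ranged from 33.4 to 56.2 FPKM in Flk-1+ cells and from 19.1 to 74.6 FPKM in HE1, with overlap.

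Gapdh, Pgk1 and Pgam1, which act in the middle of the pathway, had low and uncertain levels. Gapdh had 9.10, 16.2 and 10.2 FPKM in WT Flk-1+ cells and 4.92 and 6.23 FPKM in WT HE1, and 11.6, 5.18 and 17.3 against 0.172 and 10.1 FPKM in Lmo2-/-. Gapdh has 77 near-identical copies in the GENCODE M21 transcripts (at least 95% identity over at least 300 bases), and the 75 with a value summed to 1.36 to 44.5 FPKM. Pgk1 had 6.42, 7.19 and 11.9 FPKM in WT Flk-1+ cells and 4.81 and 9.68 FPKM in WT HE1, and 9.17, 4.05 and 7.37 against 0.671 and 9.44 FPKM in Lmo2-/-. Pgam1 had 1.74, 1.96 and 2.78 against 0.630 and 1.64 FPKM in WT and 3.83, 1.11 and 2.82 against 2.09 and 0 FPKM in Lmo2-/-, and its pseudogene copy had a median of 15.2 FPKM over the libraries. Copies with a median of 38.2 and 42.7 FPKM also exist for Tpi1 and Pkm, so reads of these genes could have been split by the counting. Pfkm, the muscle-type phosphofructokinase, ranged from 0 to 6.84 FPKM over the 13 libraries.

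The enzymes summed to 817 to 1374 FPKM in the 9 Flk-1+ libraries, 423 and 377 FPKM in HE1 labelled WT, and 263 and 788 FPKM in HE1 labelled Lmo2-/-. Each HE1 sum was below each Flk-1+ sum, and in each Flk-1+ library Ldha, Pkm and Aldoa were the 3 highest enzymes.

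Among the transporters Slc16a1 fell in both lines, and in Lmo2-/- Slc16a3 fell and Slc2a1 rose. Slc16a1 (MCT1), a carrier of lactate and pyruvate, had 31.6, 14.4 and 30.9 FPKM in WT Flk-1+ cells and 5.84 and 9.56 FPKM in WT HE1, and 28.2, 18.2 and 18.2 against 10.9 and 5.21 FPKM in Lmo2-/-. It fell without overlap by 1.57 in WT (SE 0.44, adjusted p = 0.0394) and fell by 1.36 in Lmo2-/- (SE 0.44, adjusted p = 0.0372). These calls were lost in 13 and 7 of the 22 alternatives. Slc16a3 (MCT4), the lactate exporter of glycolytic cells, had 20.6, 22.6 and 20.1 FPKM in WT Flk-1+ cells and 7.98 and 2.17 FPKM in WT HE1, without overlap, at a log2 fold change of -2.05 (adjusted p = 0.0660). The Lmo2-/- libraries had 30.5, 47.00 and 34.7 FPKM before and 1.33 and 13.6 FPKM after the step, and Slc16a3 fell by 2.69 (SE 0.65, adjusted p = 0.00946). That call was lost in 3 of the 22 alternatives, when the groups were fitted alone, with array weights and without HE1 replicate 0 (highest adjusted p 0.0702).

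Slc2a1 (GLUT1), the basal glucose transporter, had 63.8, 70.1 and 53.5 FPKM in WT Flk-1+ cells and 71.3 and 70.4 FPKM in WT HE1. These do not overlap, but the log2 fold change was only 0.19 (adjusted p = 0.820). In Lmo2-/- it had 82.3, 110.0 and 119 FPKM in Flk-1+ cells and 215 and 564 FPKM in HE1, and rose by 1.76 (SE 0.39, adjusted p = 0.00626). The Lmo2-/- call was lost in 5 of the 22 alternatives, among them the fit without HE1 replicate 1, at 1.06 (adjusted p = 0.0802), and that after rescaling to a common median, at 0.75 (adjusted p = 0.126). The interaction of genotype and stage, which tests the difference between the 2 steps, was 1.57 for Slc2a1 (adjusted p = 0.265). Slc2a3 (GLUT3), a high-affinity glucose transporter, had 36.5, 37.8 and 53.4 FPKM in WT Flk-1+ cells and 43.9 and 47.8 FPKM in WT HE1, and 82.98, 40.8 and 67.6 against 61.3 and 145 FPKM in Lmo2-/-, with overlap in both lines.

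Of the oxygen-sensing genes Epas1 rose in both lines and Hif1a in Lmo2-/-, and the prolyl hydroxylases did not pass the test. Epas1, which encodes HIF-2 alpha, had 0.746, 0.403 and 0.265 FPKM in WT Flk-1+ cells and 34.5 and 26.7 FPKM in WT HE1. In Lmo2-/- it had 1.96, 3.69 and 2.46 FPKM before and 27.4 and 141 FPKM after the step, so every HE1 library was far above every Flk-1+ library. It rose by 4.43 in WT (SE 0.59, adjusted p = 0.000483) and by 4.13 in Lmo2-/- (SE 0.59, adjusted p = 0.000535), and both calls were kept in all 22 alternatives. The file locus of Hif1a, which encodes HIF-1 alpha, also holds Gm49321, a coding gene on the same strand. Hif1a had 24.2, 10.3 and 15.5 FPKM in WT Flk-1+ cells and 31.4 and 41.96 FPKM in WT HE1, without overlap. The log2 fold change in WT was 1.16 (limma adjusted p = 0.145). In Lmo2-/- Hif1a had 14.02, 19.3 and 9.50 against 80.8 and 49.7 FPKM and rose by 2.13 (SE 0.46, limma adjusted p = 0.00536). This call was kept without each library but lost after quantile normalization, at 1.11 (adjusted p = 0.174), and after rescaling to a common median. A transcript level does not give the level of these proteins, which is set by oxygen. Egln1, the main prolyl hydroxylase, had 12.8, 22.8 and 19.04 FPKM in WT Flk-1+ cells and 11.01 and 13.1 FPKM in WT HE1, and 23.4, 18.8 and 23.4 against 15.8 and 29.5 FPKM in Lmo2-/-. Egln3, a hydroxylase that hypoxia itself induces, had 20.7, 19.8 and 20.2 against 18.4 and 11.9 FPKM in WT, without overlap, and 23.6, 22.9 and 20.97 against 13.6 and 28.8 FPKM in Lmo2-/-.

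**Figure D3:**
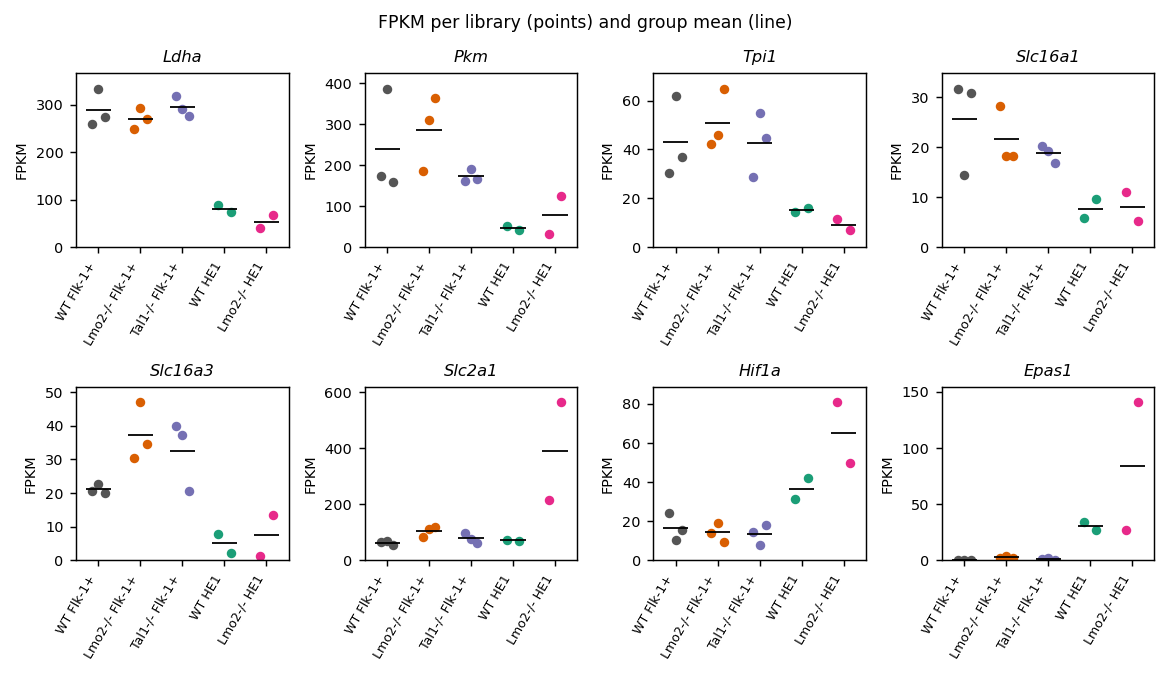
FPKM of 8 members in each library (points) with the group mean (line), on linear axes from 0. Ldha, Pkm, Tpi1, Slc16a1 and Slc16a3 lie lower in both HE1 groups than in the Flk-1+ groups of the same lines, Hif1a and Epas1 lie higher, and Slc2a1 is highest in the 2 HE1 libraries labelled Lmo2-/-.

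The regulators of flux and the hypoxia-response genes gave few calls between the stages. Pdk1, the kinase that shuts pyruvate dehydrogenase, had 6.19, 12.3 and 11.9 FPKM in WT Flk-1+ cells and 19.6 and 8.66 FPKM in WT HE1, and 14.3, 21.8 and 19.5 against 9.93 and 14.8 FPKM in Lmo2-/-. Pfkfb3, which makes the activator of phosphofructokinase, had 4.64, 5.33 and 10.1 against 10.6 and 5.90 FPKM in WT and 13.7, 10.2 and 11.5 against 7.01 and 11.8 FPKM in Lmo2-/-. Both genes overlapped between the stages in each line. Pfkfb4, its paralogue, ranged from 0 to 3.87 FPKM in 12 libraries and had 12.6 FPKM in HE1 replicate 1 labelled Lmo2-/-.

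Ddit4 (REDD1), an inhibitor of mTORC1 that hypoxia induces, had 3.96, 17.6 and 9.37 FPKM in WT Flk-1+ cells and 3.21 and 0.998 FPKM in WT HE1, without overlap (adjusted p = 0.0919). In Lmo2-/- it had 16.1, 6.91 and 18.8 against 4.23 and 1.65 FPKM and fell by 1.90 (SE 0.61, adjusted p = 0.0367), a call lost in 8 of the 22 alternatives, among them the fits without WT Flk-1+ replicate 2, Lmo2-/- Flk-1+ replicate 0 or 2, and HE1 replicate 1 (highest adjusted p 0.221). Bnip3, a mitophagy receptor, had 2.94, 5.04 and 9.93 FPKM in WT Flk-1+ cells and 0.439 and 0 FPKM in WT HE1, without overlap. Its adjusted p was 0.0244, but its means stayed below 10 FPKM, so it was not called, and in Lmo2-/- it had 14.6, 5.62 and 11.8 against 1.35 and 6.32 FPKM. Bnip3l (NIX), its paralogue, had 33.8, 28.02 and 30.6 against 23.2 and 27.2 FPKM in WT and 27.2, 34.6 and 22.97 against 12.1 and 51.6 FPKM in Lmo2-/-, without overlap in WT only, and stayed the more abundant of the pair in each library. Ankrd37, a small ankyrin-repeat protein gene known as a HIF target, was listed at 0 in all 4 HE1 libraries against 0.304, 2.79 and 3.43 FPKM in WT and 8.84, 2.30 and 3.45 FPKM in Lmo2-/- Flk-1+ cells, below the level for a call.

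The other hypoxia-response genes gave no call between the stages. Ero1l, the oxidase that forms disulphide bonds in the endoplasmic reticulum, had 11.1, 8.22 and 12.7 FPKM in WT Flk-1+ cells and 20.5 and 22.7 FPKM in WT HE1, without overlap, at a log2 fold change of 0.97 (adjusted p = 0.219). Ndrg1, a stress-induced gene, had 3.33, 4.031 and 4.71 against 6.65 and 5.39 FPKM in WT, also without overlap. In Lmo2-/- Ero1l had 23.5, 11.9 and 11.7 against 16.2 and 23.1 FPKM and Ndrg1 had 10.1, 12.5 and 7.48 against 3.95 and 22.4 FPKM, with overlap in both. Vegfa, the ligand of Flk-1, had 17.97, 93.8 and 39.7 FPKM in WT Flk-1+ cells and 29.9 and 72.2 FPKM in WT HE1, and 46.6, 49.6 and 103 against 67.1 and 49.04 FPKM in Lmo2-/-, with overlap in both lines. Mxi1, a repressor that opposes MYC, stayed between 0.964 and 3.28 FPKM in all 13 libraries. The collagen prolyl hydroxylase subunits P4ha1 and P4ha2 ranged from 6.24 to 26.6 and from 3.28 to 33.8 FPKM in Flk-1+ cells, and from 11.1 to 43.7 and from 1.91 to 12.9 FPKM in HE1.

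Between the genotypes in HE1 a single member was called. Slc2a1 had 71.3 and 70.4 FPKM in the libraries labelled WT and 215 and 564 FPKM in those labelled Lmo2-/-, 5.50 times the mean. It was higher by 2.28 on the log2 scale (SE 0.43, limma adjusted p = 0.0112), and 1 of 37 members called higher stands beside 2.15% of all genes, with 0 called lower beside 0.855%. The 2 libraries labelled Lmo2-/- also differed from each other, and the call was lost without either library labelled WT and without replicate 1 labelled Lmo2-/- (adjusted p = 0.0822), a fit in which Ldhb was called in its place. It was also lost when the groups were fitted alone (adjusted p = 0.408) and with array weights (adjusted p = 0.0990), and kept in 17 of the 22 alternatives. The summed smooth muscle and fibroblast markers, given above, were higher in the same libraries. Of the list, Acta2, Col1a1, Col1a2, Col3a1, Postn and Pdgfrb were higher without overlap. Tagln, Cnn1 and Myl9 overlapped, with Tagln at 50.5 and 53.7 FPKM in HE1 labelled WT and 59.0 and 24.1 FPKM in HE1 labelled Lmo2-/-.

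The other members did not separate in HE1 beyond their background. Without overlap, 8 members were higher and 2 lower in HE1 labelled Lmo2-/-, or 21.6% and 5.41% of the 37, against 25.9% and 13.8% of all genes. The higher members were Slc2a1, Slc2a3, Pfkp, Aldoc, Hif1a, Egln1, Bnip3 and Mxi1, and the lower were Tpi1 and Ldha, with the values given above. The median log2 fold change was 0.40, with 27 members positive and 9 negative, beside 0.15 over all genes, and it changed sign to -0.016 after quantile normalization and -0.047 after rescaling to a common median. It was 0.043 without replicate 1 labelled Lmo2-/- and 0.76 without replicate 0.

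A difference of the step between the lines was not called for any member. No member was called for the interaction of genotype and stage, which called 48 genes or 0.348% of all. By limma 1 member, Slc2a1, had an unadjusted p below 0.05, and 2 members were called without HE1 replicate 0 labelled Lmo2-/- (Slc2a1 and Pfkl).

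Most members had higher values in Lmo2-/- than in WT Flk-1+ cells, but none passed the test. None of the 13802 genes passed the call between these 2 groups (0%), and 307 genes, 3 of them members, had an unadjusted p below 0.05 in limma. The median log2 fold change of the 37 members was 0.33, with 29 positive and 8 negative, beside -0.01 over all genes, of which 48.5% were positive. Without overlap, 9 members were higher and 0 lower in Lmo2-/-, or 24.3% and 0% of the 37, against 3.99% and 4.22% of all genes. The members' median was 0.15 without WT Flk-1+ replicate 0, which had the lowest member median of the Flk-1+ libraries, and 0.50 without WT Flk-1+ replicate 1. Summed markers of other cells differed between the same libraries. The 9 smooth muscle and fibroblast markers summed to 28.8 to 38.8 FPKM in Lmo2-/- and 14.5 to 25.8 FPKM in WT. Of the 9 only Col1a1 was without overlap, at 19.03, 15.9 and 26.9 FPKM in Lmo2-/- and 5.80, 12.8 and 4.54 FPKM in WT. Postn was at 0 in all 6 libraries and the rest overlapped. The 5 pluripotency markers summed to 4.31 to 7.81 FPKM in Lmo2-/- and 12.3 to 15.9 FPKM in WT. Among them only Pou5f1 was without overlap, at 4.31, 2.62 and 5.53 FPKM in Lmo2-/- and 9.45, 13.6 and 7.91 FPKM in WT. Nanog, Sox2, Zfp42 and Esrrb overlapped. The part of both lists in the members' values was not tested.

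The 9 members came from each role group. Slc2a1 had 63.8, 70.1 and 53.5 FPKM in WT and 82.3, 110.0 and 119 FPKM in Lmo2-/- Flk-1+ cells, 1.66 times the mean. Slc16a3 was 1.77 times the WT mean, at 20.6, 22.6 and 20.1 FPKM in WT and 30.5, 47.00 and 34.7 FPKM in Lmo2-/-. Pdk1 had 6.19, 12.3 and 11.9 FPKM in WT and 14.3, 21.8 and 19.5 FPKM in Lmo2-/-, 1.82 times the mean, and Pfkfb3 had 4.64, 5.33 and 10.1 and 13.7, 10.2 and 11.5 FPKM, 1.76 times. In each of these 4 genes the lowest Lmo2-/- library lay above the highest WT library. Aldoc was 2.95 times, Ndrg1 2.49 times and Egln3 1.11 times the WT mean. Mxi1 was 1.42 times, at 2.03, 2.44 and 1.72 FPKM in WT and 3.03, 2.71 and 3.05 FPKM in Lmo2-/-. Epas1 was 5.74 times the WT mean, but at 0.746, 0.403 and 0.265 FPKM in WT and 1.96, 3.69 and 2.46 FPKM in Lmo2-/- Flk-1+ cells, which are low levels. With 3 against 3 libraries the smallest two-sided p of an exact permutation test is 0.10, which all 9 have, and their limma adjusted p was 1. The largest sizes on the log2 scale were 1.48 for Aldoc (SE 0.61), 1.32 for Epas1 (SE 0.53) and 1.25 for P4ha2 (SE 0.61), whose libraries overlapped. By group the median was 0.62 for the 4 transporters, 0.27 for the 16 enzymes, 0.79 for the 3 flux regulators, 0.21 for the 4 oxygen-sensing genes and 0.54 for the 10 hypoxia-response genes tested.

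**Figure D4:**
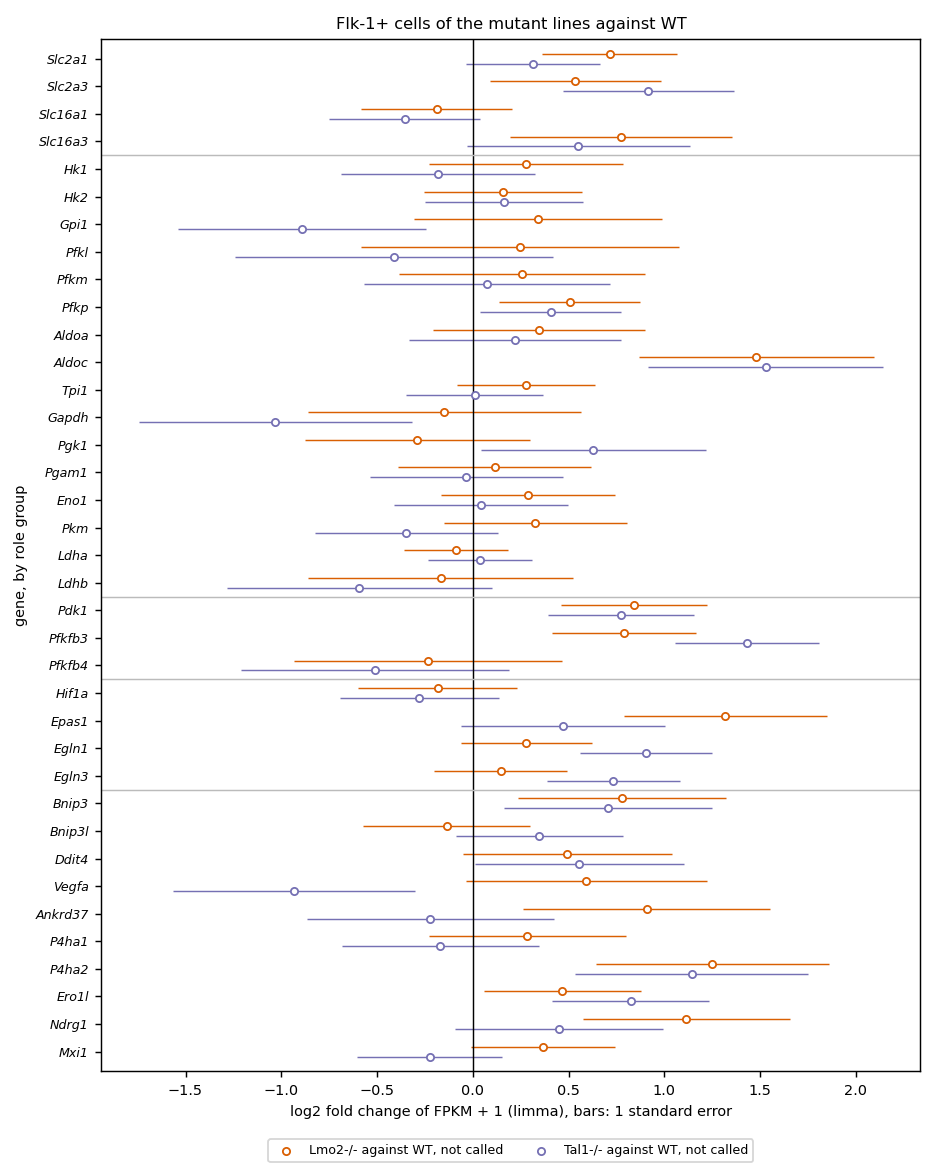
Log2 fold changes of the 37 members tested in Flk-1+ cells of Lmo2-/- (orange) and Tal1-/- (purple) against the same 3 WT libraries, as points with 1 standard error from limma. No point is filled, since no member passed the test, and 29 points of Lmo2-/- and 23 of Tal1-/- lie right of 0.

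In Tal1-/- Flk-1+ cells 5 members lay outside the WT range, and none passed the test. Again no gene passed the call against WT (0%), with 843 genes and 3 members at an unadjusted p below 0.05 in limma. The median of the members was 0.16, with 23 positive and 14 negative, beside -0.01 over all genes. Without overlap 4 members were higher and 1 lower, or 10.8% and 2.70% of the 37, against 5.25% and 7.40% of all genes. The summed smooth muscle and fibroblast markers, at 28.1 to 45.9 FPKM in Tal1-/-, were here also above WT, mostly through Col1a1. It had 30.3, 22.9 and 16.2 FPKM in Tal1-/- and 5.80, 12.8 and 4.54 FPKM in WT. Postn, at 0 in WT, had 0.678, 1.84 and 3.01 FPKM in Tal1-/-. Tagln was lower, at 1.33, 0 and 0 FPKM against 7.52, 3.25 and 2.98 FPKM in WT, and the rest of the list overlapped. The pluripotency markers, at 6.89 to 23.2 FPKM, overlapped WT. The higher members were Pfkfb3, Pdk1, Egln1 and Egln3. Pfkfb3 had 19.1, 16.2 and 21.3 FPKM in Tal1-/-, 2.83 times the WT mean (log2 fold change 1.43, SE 0.38, adjusted p = 0.417). Pdk1 had 18.3, 18.1 and 15.8 FPKM, 1.71 times the WT mean. The prolyl hydroxylases Egln1, at 45.6, 33.1 and 26.2 FPKM, and Egln3, at 49.1, 26.3 and 31.1 FPKM, were 1.92 and 1.76 times the WT means. Gapdh, with its many copies, was the lower member, at 2.29, 8.34 and 6.41 FPKM. Because both mutants were compared with the same WT libraries, their differences from WT are not independent of each other.

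Set directly against each other, the 2 mutants differed in a few members and no call. Of all genes 0.0145% were called between Lmo2-/- and Tal1-/- Flk-1+ cells, none of them a member, and 1 member, Vegfa, had an unadjusted p below 0.05 in limma. The members' median was -0.17 from Lmo2-/- to Tal1-/-, with 11 positive and 26 negative. Without overlap 4 members were higher in Tal1-/- and 5 lower, or 10.8% and 13.5%, against 6.59% and 6.66% of all genes. The higher were Pfkfb3, Egln1, Egln3 and Pgk1, the last at 12.5, 17.2 and 10.9 FPKM in Tal1-/-. The lower were Gpi1, Pfkl, Epas1, Vegfa and Mxi1. Vegfa had 46.6, 49.6 and 103 FPKM in Lmo2-/- and 37.00, 8.14 and 29.3 FPKM in Tal1-/- Flk-1+ cells (log2 fold change -1.52, SE 0.63, adjusted p = 0.802), but its WT libraries ran from 17.97 to 93.8 FPKM and overlapped both. Gpi1 had 36.9, 42.00 and 26.1 FPKM in Tal1-/-, below the WT and Lmo2-/- means, and Pfkl had 21.8, 17.1 and 21.4 FPKM. Epas1 was at 0.915, 1.66 and 0.615 FPKM in Tal1-/-, 0.394 times the Lmo2-/- mean, and Mxi1 was 0.565 times that mean, both at low levels.

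The other members tested overlapped between Tal1-/- and WT Flk-1+ cells. The abundant members Ldha and Pkm had 318, 290.3 and 276 and 160.3, 189.8 and 167 FPKM in Tal1-/- Flk-1+ cells, and Aldoa had 286, 245 and 128 FPKM. Slc2a1 had 99.1, 77.4 and 60.4 FPKM, Slc2a3 159, 53.03 and 60.6 FPKM and Slc16a3 40.02, 37.3 and 20.6 FPKM, so replicate 0 was the highest of the 3 for each of these transporters. Hif1a had 14.7, 7.76 and 18.1 FPKM. Slc2a3 in replicate 0 was above each WT and Lmo2-/- Flk-1+ library, as was Aldoc, which had 29.98, 9.97 and 3.51 FPKM in Tal1-/-.

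Paralogues of a step took different shares of its FPKM, which is a description with no test. Hif1a made up 97.00, 96.2 and 98.3% of the summed FPKM of Hif1a and Epas1 in WT Flk-1+ cells and 47.6 and 61.1% in WT HE1. In Lmo2-/- Flk-1+ cells its share was 87.7, 83.9 and 79.4%, below each WT library, and in HE1 labelled Lmo2-/- it was 74.7 and 26.1%. Thus Epas1 took a larger part of the pair in every HE1 library than in any Flk-1+ library. Hk2 made up 95.7, 83.2 and 91.9% of the 2 hexokinases in WT Flk-1+ cells and 57.7 and 89.4% in WT HE1, and 92.5, 89.2 and 88.3% and 84.3 and 72.1% in the 2 stages of Lmo2-/-. Ldha made up 88.9 to 96.9% of the lactate dehydrogenase pair in Flk-1+ cells, all of it in 3 HE1 libraries where Ldhb was listed at 0, and 78.9% in HE1 replicate 0 labelled Lmo2-/-. Slc2a1 made up 38.4 to 72.9% of the 2 glucose transporters in Flk-1+ cells, 61.9 and 59.5% in WT HE1 and 77.8 and 79.5% in HE1 labelled Lmo2-/-, above all other libraries.

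Aldoa and Bnip3l were the larger of their pairs in all libraries, with 90.5 to 100% of the aldolases and 65.2 to 100% of Bnip3l and Bnip3. The order of the pairs that follow was not the same in all libraries. Pfkp made up 48.0 to 72.4% of the phosphofructokinases in Flk-1+ cells, and in HE1 labelled Lmo2-/- the shares of 69.4 and 18.8% show how far these 2 libraries lie apart. Egln1 made up 37.5 to 55.7% of its pair with Egln3. Slc16a1 made up 60.5, 38.9 and 60.5% of the lactate carriers in WT Flk-1+ cells and 27.7 to 89.2% in HE1. P4ha1 took 77.2 to 85.3% of the collagen hydroxylase pair in HE1 and 27.9 to 77.8% in Flk-1+ cells. Pfkfb3 exceeded Pfkfb4 in each library except HE1 replicate 1 labelled Lmo2-/-, where its share was 48.3%.

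**Figure D5:**
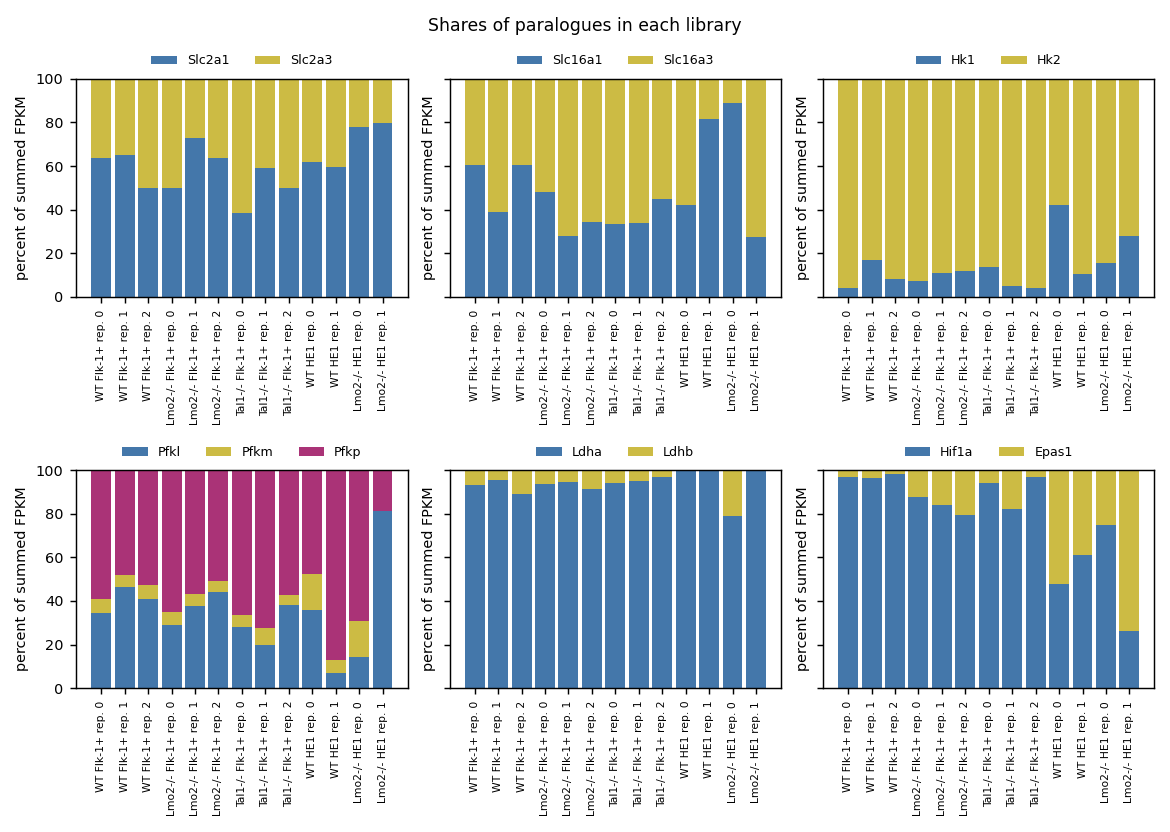
Share of each paralogue in the summed FPKM of its pair or trio, in percent, for each of the 13 libraries. The Epas1 part of the Hif1a and Epas1 bars is taller in the 4 HE1 libraries, at 25.3 to 73.9%, than in the Flk-1+ libraries, at 1.68 to 20.6%.

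Further genes of the same pathways, which are no members, were tested in the same fit. Of 29 further genes of glycolysis and pyruvate use, 16 were tested and a single call was made over all comparisons, in the Lmo2-/- step, where Pdk3, another pyruvate dehydrogenase kinase, rose by 1.94 (adjusted p = 0.0368) with 5.79, 12.4 and 7.11 FPKM before and 13.5 and 81.9 FPKM after it. The high value was that of replicate 1. Of 30 further genes of oxygen sensing and hypoxia, 30 were tested. In the Lmo2-/- step 6 of the 30 rose (Egln2, Arnt, Kdm3a, Loxl2, Plod1 and Wsb1), a share near the 17.2% of all tested genes called higher, and 2 fell (Hmox1 and Tfrc), beside 2.38% of all. Egln2, a prolyl hydroxylase, rose by 1.49 (adjusted p = 0.0447) and Arnt, the shared beta subunit of the factors, by 1.33 (adjusted p = 0.0462).

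Calls among these genes were also made between the genotypes in HE1, where 2.15% of all genes were called higher and 0.855% lower. Loxl2 and Plod2, which crosslink and hydroxylate collagen, were higher in HE1 labelled Lmo2-/-, by 3.42 (adjusted p = 0.00155) and 1.77 (adjusted p = 0.0422). Insig2, a regulator of sterol synthesis, had 20.03 and 18.5 FPKM in HE1 labelled WT and 3.98 and 0 FPKM in HE1 labelled Lmo2-/- and was called lower there (adjusted p = 0.0406). No gene of either list was called between the genotypes in Flk-1+ cells.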

How the data were processed

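The 13 RNAseq libraries described above were analysed. The authors aligned stranded poly(A) libraries with TopHat2 2.0.9 to GRCm38 (mm10), assembled transcripts with Cufflinks 2.0.0 and deposited FPKM per library from Cuffnorm, with normalisation and length correction by their tools. The deposited Cuffdiff 2.0.1 table also holds the authors' own tests, which were not used. All per-library columns were used (0 left out), and replicate numbers are those of the columns. The study's methods give only a minimum number of paired-end reads common to all libraries, and the FPKM come without fragment counts, so the depth of each library is not known and no counting interval was given.

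The 38 members and the lists of further genes and markers were chosen with earlier results of these data known. Genes with a locus over 200 bp and at least 1 FPKM in at least 2 libraries were tested on log2(FPKM + 1) with limma 3.58.1 in R 4.3.3 (mean-variance trend, all 13 libraries, group as factor, two-sided, Benjamini-Hochberg). The fit was tested on simulated data. Members called in a comparison or without overlap were given per library, others by range. Near-identical copies and gene positions are from GENCODE M21 and promoters from RefSeq on GRCm38.p6, whose table gave none for 5 members. Alternatives were a pseudocount of 0.1, no filter on low values, no FPKM criterion, rescaling of the libraries to 1 median, quantile normalization, array weights, a fit of only the groups compared, a block for the replicate number, and the omission of each library in turn. Adding near-identical copies was chosen after seeing the data. Other steps used scipy 1.17.1, matplotlib 3.10.9 and pandas 2.3.3 under Python 3.11.15. ChIPseq and DNase data were not used here, and 1 gene of the further lists is not reported here.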

Additional observations from a re-analysis of the deposited data

Results flagged for a closer look

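A difference between the lines in the step from Flk-1+ cells to HE1 was called for 1 gene of the further pathway lists and for no member. For Loxl2, a lysyl oxidase that crosslinks collagen, the interaction term came to 2.94 in log2 units (SE 0.55, limma adjusted p = 0.0344). Loxl2 had 6.93, 8.95 and 8.52 FPKM in WT Flk-1+ cells and 10.2 and 5.38 FPKM in HE1 labelled WT, against 11.99, 9.81 and 13.3 FPKM in Lmo2-/- Flk-1+ cells and 65.97 and 121 FPKM in HE1 labelled Lmo2-/-. The 9 smooth muscle and fibroblast markers summed to 534 and 1663 FPKM in the latter libraries and to 215 and 257 FPKM in HE1 labelled WT, and their part in the Loxl2 value was not tested.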

How the results depend on the processing

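Of 280 recomputed member counts and medians, 258 kept their direction and stayed within 1.5 times the count or within 0.311, the SD of the members' median between replicate libraries. The Flk-1+ part of this tally is a weak check. Its counts of 0 had little room to move, since at most 2 of 13802 genes were called there. The margin of 0.311 is also about as large as the Flk-1+ medians of 0.33, 0.16 and -0.17, or larger. The median between the HE1 genotypes changed sign to -0.016 after quantile normalization and -0.047 after rescaling to a common median, and the quantile count there was 2. These scalings moved the stage medians to -0.88 and -0.91 in WT and -1.31 and -1.50 in Lmo2-/-, where rescaling called 18 members. Fitting the groups alone gave 0 calls in HE1 and 5 in the Lmo2-/- step, and array weights gave 0 in HE1, 11 in the WT step and 4 in the Lmo2-/- step. The cause of these shifts was not tested. The shares of all genes called in these alternative fits are not given here, so the member counts have no background beside them.

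With each library left out, the members called ranged from 0 to 0 in each Flk-1+ comparison, 0 to 5 between the HE1 genotypes, 3 to 8 in the WT step, 7 to 12 in the Lmo2-/- step and 0 to 2 for the interaction. The medians ranged from 0.15 to 0.50 (WT to Lmo2-/-), 0.10 to 0.31 (WT to Tal1-/-) and -0.34 to -0.08 (Lmo2-/- to Tal1-/-) in Flk-1+ cells, from 0.043 to 0.76 between the HE1 genotypes, and from -0.74 to -0.35 and -0.89 to -0.092 in the WT and Lmo2-/- steps. Without an HE1 library its group keeps 1 library, which is assumed to vary like the other groups. Of 374 values of the called members under the alternatives, 307 kept the call, 67 lost it and 0 changed direction. Nothing states that the replicate numbers pair the libraries, and no pairing was used. Deviations of same-numbered libraries correlated at -0.184 to 0.169, which cannot show whether they were made together. A replicate block left 4 members called in the WT step and 8 in the Lmo2-/- step. Shares of all genes called with the block or with a library left out are also not given here. A change in these member counts therefore cannot be told apart from a general change in calls. Without fragment counts no counting error could be given, which matters most for low members such as Car9, Ankrd37 and Pfkfb4.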
